A study of Ovis aries with 5 samples.

Results

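The CD1 family was measured by 8 probes of 15008, for 5 transcript records of 14400, on a sheep expression array, in dendritic cells (DC) that had been collected from skin lymph and sorted on the surface proteins CD1b and CD26. A probe was counted as CD1 where the array annotation gave it the gene name CD1, with or without a letter from A to E, or described its target as a CD1 molecule. There were 2 probes each for SCD1A25 (gene name CD1), for clone SCD1D (gene name CD1D) and for LOC443441 (described as CD1B), and 1 probe each for LOC443442 (described as CD1) and for a record described as a T-cell receptor CD1b alpha chain. The sorted groups were CD1b+CD26+ and CD1b+CD26- lymph DC, each from sheep 10081 and sheep 30066, which gave 2 arrays per group. Cy3 carried the RNA of the sorted cells on these 4 arrays, and Cy5 carried a reference, which the labels give as total DC enriched from lymph of other animals. The remaining array held this same reference under Cy3 and Cy5 (the self-hybridisation). The labels give no genotype, treatment or age for the animals. CD1b was a sort marker of both subsets, so neither subset holds CD1b-negative cells by design, whereas the labels name no such sort for the reference. The labels disagree on the reference: the protocol for labelling gives cultured cells as its source, whereas the sample names give total DC, the term used here.

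CD1 molecules resemble MHC class I heavy chains and pair with beta-2-microglobulin, but their groove holds the acyl chains of lipids and presents glycolipids and phospholipids to T cells. Group 1 molecules, among them CD1A, CD1B and CD1C, present microbial and self lipids to diverse T cells, and CD1D, the group 2 molecule, presents lipids to natural killer T cells. DC are the main cells outside the thymus that carry group 1 CD1 molecules, and CD1b is widely used as a marker of ruminant lymph DC. CD26 is dipeptidyl peptidase 4, a protease of the cell surface. Its gene was not analysed here, so the sort on CD26 is not tested by these values.

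The probe sequences bear on which of these measurements are separate. The last 30 of the 60 bases (bases 31 to 60, 5′ to 3′) are given for the probes on which the comparisons rest, with the hexamer AATAAA, the canonical polyadenylation signal, in capitals where it occurs.

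SCD1A25 probe 1: gtaccttgtAATAAAtgaaatgatgtacac
SCD1A25 probe 2: caagatcagaaacagaattaaaggtgttca
CD1D probe 1: acaagcagataaaggttgcagtgtaaaaaa
CD1D probe 2: gaacattttagctaagaggatttaagttta
LOC443441 probe 2: atccaggaacctgaaacttaagttgtcagc

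The hexamer AATAAA occurred in 2 of the 8 CD1 probes on the listed strand and in 0 on the other strand, against 5.63% and 3.7% of all probes. One of the probes that hold it is SCD1A25 probe 1, and the other is that of LOC443442, where it forms the end of the probe and its last base lies past the stretch shown. The remaining LOC443441 probe and the LOC443442 probe are shown over the stretch where they differ, with the extra base in a capital.

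LOC443441 probe 1: atttgtgagaaagatataccttggaataa
LOC443442 probe 1: atttgtgagaaagAatataccttggaataa

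These 2 probes overlapped over 59 aligned positions, of which 58 were identical and 1 was a gap. Transcripts of both genes may therefore bind to either probe, and the values of LOC443441 probe 1 and LOC443442 cannot be taken as separate genes. Every other pair of CD1 probes shared a run of at most 9 bases, but those pairs were not aligned. A longest run misses likeness that is broken by single mismatches. Such likeness can be seen between SCD1A25 probe 1 and the LOC443442 probe around the hexamer. Binding of LOC443441 or LOC443442 transcripts to SCD1A25 probe 1 was not tested. With probes outside the family the longest shared run was 15 bases. Of the 5 records, LOC443441 and LOC443442 were found by accession in the RefSeq gene table of assembly ARS-UI_Ramb_v3.0, and this covered 3 of the 8 probes. In that table LOC443441 lies next to the gene with the symbol CD1, with 0 annotated genes between them, and 3 genes lie between it and LOC443442. CD1D lies on the far side of LOC443442, with 7 genes between them.

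**Figure D1:**
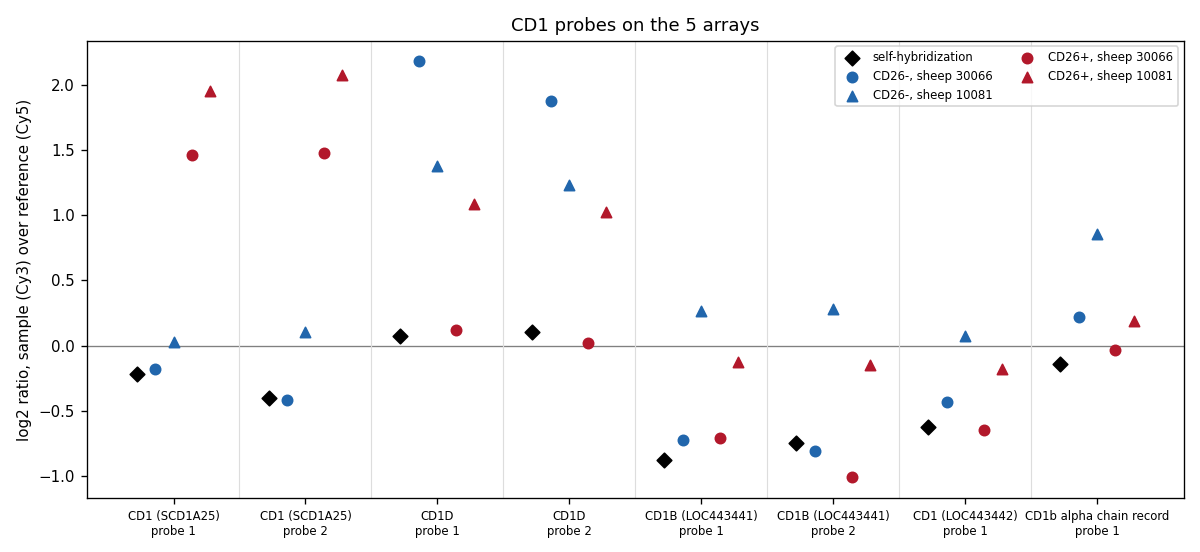
Log2 ratio of the sample (Cy3) over the reference (Cy5) for each of the 8 CD1 probes (x axis) on each of the 5 arrays (1 point per array; colour gives the group, shape the sheep). Both CD26+ arrays lie above all other arrays for SCD1A25, both CD26- arrays lie above the other arrays for CD1D, and for LOC443441 both arrays of sheep 10081 lie above those of sheep 30066.

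LOC443441, which the annotation describes as CD1B, gave similar ratios in CD26+ and CD26- cells. Both subsets were sorted on CD1b protein, but which of the CD1 records codes for that protein was not tested. On LOC443441 probe 1 the log2 ratio of sample over reference was -0.71 in CD26+ and -0.73 in CD26- cells of sheep 30066, and -0.12 and 0.26 in sheep 10081, with -0.87 on the self-hybridisation. On LOC443441 probe 2 it was -1.01 in CD26+ and -0.81 in CD26- cells of sheep 30066, and -0.15 and 0.28 in sheep 10081, with -0.74 on the self-hybridisation. The arrays thus ranked by sheep, and the subsets overlapped. The LOC443442 probe, which shares its sequence with the first of these, gave -0.65 and -0.43 for CD26+ and CD26- cells of sheep 30066, and -0.18 and 0.07 for those of sheep 10081, with -0.62 on the self-hybridisation.

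The question between the subsets is whether cells sorted for the same CD1b protein differ in CD1 transcripts. For LOC443441 the difference, CD26+ minus CD26-, was -0.18 on probe 1 (SE 0.51, 95% interval -1.56 to 1.19) and -0.31 on probe 2 (SE 0.58, interval -1.86 to 1.23). For LOC443442 it was -0.24 (SE 0.41, interval -1.33 to 0.85). These differences lie within the spread between the arrays, and the intervals still hold differences of more than 2-fold in either direction for LOC443441. Leaving out 1 array at a time moved the LOC443441 value between -0.68 and 0.31 on probe 1, and between -0.86 and 0.23 on probe 2. The direction changed when the CD26+ array of sheep 30066 (0.11 and 0.12) or the CD26- array of sheep 10081 (0.31 and 0.23) was left out, which leaves the sheep unbalanced. Within sheep 30066 and 10081 the difference was 0.02 and -0.39 on LOC443441 probe 1, -0.20 and -0.43 on probe 2, and -0.22 and -0.25 on LOC443442. With the sheep as a block the SE was 0.32, 0.30 and 0.30 on these probes, with adjusted p-values from limma of 0.903, 0.798 and 0.852.

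The difference between the sheep, for which no test is given, was larger than that between the subsets on these probes. The mean over both subsets was higher in sheep 10081 than in sheep 30066 by 0.79 and 0.97 on the LOC443441 probes, and by 0.48 on the LOC443442 probe. Both arrays of sheep 10081 lay above both of sheep 30066 on all 3 of these probes, a pattern that 22.5% of the 13264 tested probes showed. The arrays of the sheep lay in different rows of the slide, and the animal and the row cannot be told apart. Against total DC the mean of the subsets stood at 0.55 (SE 0.57) and 0.32 (SE 0.64) for LOC443441 and at 0.33 (SE 0.45) for LOC443442. These values depended on the scaling. With the log ratios scaled to a common spread between arrays they stood at 2.25 (SE 0.46) and 1.79 (SE 0.52) for LOC443441 and at 1.56 (SE 0.36) for LOC443442, with adjusted p-values from limma of 0.111, 0.159 and 0.122. That scaling acts most on the self-hybridisation, whose log ratios had an SD of 0.29 against 1.18 to 1.42 on the subset arrays. With median centring in place of loess LOC443441 probe 2 turned to -0.10 and LOC443442 to -0.07. No size of a difference from total DC is read from these probes. The self-hybridisation itself stood at -0.87 to -0.62 on these probes where its dyes carried the same RNA.

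The signal of these 3 probes was bright in every sample. The mean Cy3 signal of LOC443441 probe 1 ran from 22810 to 47035 scanner units with a median of 26300, that of probe 2 from 24178 to 51288 with a median of 25777, and that of LOC443442 from 26583 to 43740 with a median of 28135. The Cy5 signal of the 3 probes lay between 93082 and 152061 units. All 15 of these spots carried the scanner's mark for values rescaled from a scan at lower gain in both dyes, and 0 were marked as saturated. The local background of the CD1 spots was 35 to 45 units in Cy3 and 47 to 78 in Cy5.

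**Figure D2:**
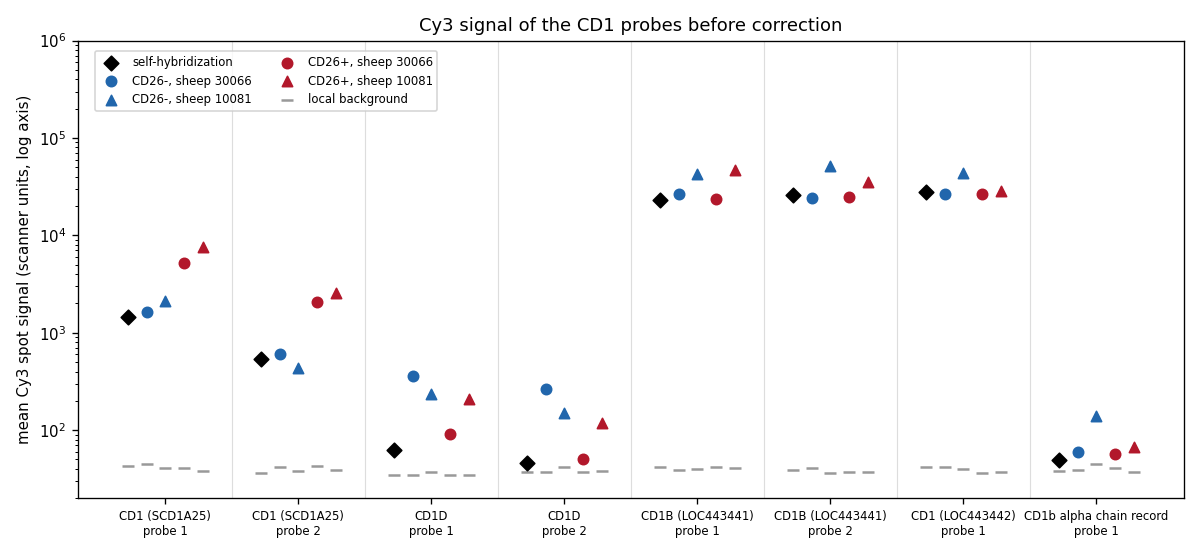
Mean Cy3 spot signal before correction (scanner units, log axis) of each CD1 probe on each array, with its local background as grey bars; colour gives the group and shape the sheep. Levels of different probes are not comparable. The LOC443441 and LOC443442 spots lie far above background on all 5 arrays, whereas CD1D probe 2 on the self-hybridisation, at 46.4 units, lies close to its background.

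SCD1A25 had higher ratios in CD26+ than in CD26- cells on both of its probes and in both sheep. The Cy3 signal of probe 1 was 5191 units in CD26+ and 1615 in CD26- cells of sheep 30066, and 7626 and 2131 in sheep 10081, with 1443 on the self-hybridisation. The Cy5 signal of the same probe, which measures the reference, stayed between 3572 and 4759 units. As log2 ratios, CD26+ cells stood at 1.46 and 1.95 and CD26- cells at -0.18 and 0.03 (sheep 30066 and 10081), with -0.22 on the self-hybridisation. Both CD26+ arrays lay above every other array, and the CD26- arrays lay near the self-hybridisation. Both CD26+ arrays lay above both CD26- arrays on 14.7% of the tested probes.

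Probe 2 of SCD1A25, which has no sequence in common with probe 1 beyond short runs, gave the same order. Its Cy3 signal was 2048 in CD26+ and 604 units in CD26- cells of sheep 30066, and 2573 and 433 in sheep 10081, with 543 on the self-hybridisation. Its log2 ratios were 1.48 and 2.07 in CD26+ and -0.42 and 0.11 in CD26- cells, with -0.40 on the self-hybridisation. On the CD26- array of sheep 10081 this spot was dim in both dyes, with a Cy5 signal of 633 units against 1351 to 1617 on the other arrays, and the ratio of the dyes was used. The probes of SCD1A25 differed from each other by at most 0.24 on any array.

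Within sheep 30066 the difference of SCD1A25, CD26+ minus CD26-, was 1.64 on probe 1 and 1.89 on probe 2, and within sheep 10081 it was 1.92 and 1.97. The means over the sheep were 1.78 (SE 0.38, 95% interval 0.77 to 2.80) and 1.93 (SE 0.43, interval 0.78 to 3.08), which is 3.44-fold and 3.81-fold. limma gave unadjusted p-values of 0.00743 and 0.00875 and an adjusted p of 0.777 for both, so neither passed the threshold of 0.05. Among the 7 CD1 probes tested, 0 were called, against 0% of all 13264 tested probes (746 probes, 5.62%, had an unadjusted p under 0.05). In each sheep the ratio in CD26+ cells was at least 2-fold that in CD26- cells on both probes, which held for 2.36% of the tested probes. The smallest value under any alternative was 1.36 for probe 1 and 1.48 for probe 2, both with the log ratios scaled between arrays. With 2 arrays against 2, an exact two-sided permutation test of a single probe cannot go below p = 0.333.

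Against total DC, SCD1A25 stood at 1.92 (SE 0.46) and 2.17 (SE 0.52) in CD26+ cells, which is 3.79-fold and 4.51-fold higher, and at 0.14 (SE 0.46) and 0.24 (SE 0.52) in CD26- cells. The adjusted p was 0.34 for both probes in CD26+ cells, and 0.956 and 0.928 in CD26- cells. Both CD26+ arrays were at least 2-fold above the self-hybridisation on both probes, as on 9.71% of the tested probes, and 0% were called in either comparison. At an unadjusted p under 0.05, both SCD1A25 probes (0.0119 each) and no other CD1 probe passed for CD26+ cells, where 11.2% of the tested probes did. For CD26- cells 0 CD1 probes passed (10.6% of the tested probes), and 0 for the mean of the subsets (11.7%). With the log ratios scaled between arrays, LOC443441 (both probes) and LOC443442 also had an unadjusted p under 0.05 in all 3 of these comparisons, as had SCD1A25 probe 2 in CD26- cells (at 1.02) and both SCD1A25 probes for the mean. That scaling also raised the number of all tested probes with such a p. It was 2838 of 13264 for CD26+ cells and 2623 of 13264 for CD26- cells, against 1491 and 1401 without it. On neither SCD1A25 probe did the difference of CD26- cells from total DC keep its direction under all alternatives. Median centring gave -0.04 on probe 1, and Cy3 alone gave -0.35 on probe 2. The ratio of both subsets rests on the same self-hybridisation array, so these comparisons share their control. Total DC is 1 array here, and every SE and p against it assumes that it varies like the subset arrays.

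**Figure D3:**
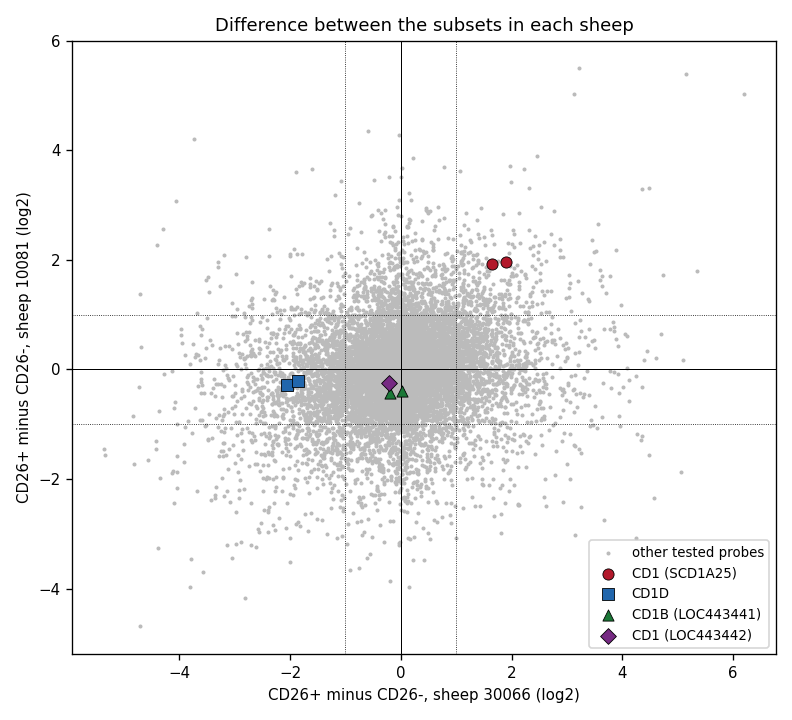
Difference in log2 ratio, CD26+ minus CD26-, in sheep 30066 (x axis) and in sheep 10081 (y axis) for each tested probe (1 point per probe; dotted lines mark a 2-fold difference). The SCD1A25 probes lie in the corner that is at least 2-fold higher in both sheep, the CD1D probes are more than 2-fold lower in sheep 30066 alone, and the LOC443441 and LOC443442 probes lie near 0.

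CD1D had the opposite order to SCD1A25: its ratios were highest in CD26- cells and lowest in total DC and in CD26+ cells of sheep 30066. The Cy3 signal of CD1D probe 1 was 91.5 units in CD26+ and 357 in CD26- cells of sheep 30066, and 207 and 237 in sheep 10081, with 62.5 on the self-hybridisation. Its log2 ratios were 0.12 in CD26+ and 2.18 in CD26- cells of sheep 30066, 1.08 and 1.38 in sheep 10081, and 0.08 on the self-hybridisation. Both CD26- arrays lay above both CD26+ arrays, but in sheep 10081 the gap was small. A position below both CD26- arrays was shared by 16.2% of the tested probes.

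Probe 2 of CD1D was dimmer and followed the same order. Its Cy3 signal was 51.0 in CD26+ and 264 units in CD26- cells of sheep 30066, and 119 and 150.0 in sheep 10081, with 46.4 on the self-hybridisation. It was well above background in Cy3 on 3 of 5 arrays and in Cy5 on 1 of 5, so that most of its ratios rest on a reference signal near background. Its log2 ratios were 0.02 and 1.87 in sheep 30066 and 1.03 and 1.23 in sheep 10081, CD26+ before CD26-, with 0.10 on the self-hybridisation. The probes of CD1D differed from each other by at most 0.30 on any array.

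The difference of CD1D, CD26+ minus CD26-, was -2.06 and -1.85 in sheep 30066 and -0.29 and -0.20 in sheep 10081 (probe 1 and probe 2). The mean was -1.18 (SE 0.54, 95% interval -2.62 to 0.27) on probe 1 and -1.03 (SE 0.52, interval -2.43 to 0.38) on probe 2, with an adjusted p of 0.909 and 0.934 from limma. The CD26+ spot of probe 2 in sheep 30066 was not well above background, so that the -1.85 and the mean of this probe rest on an unmeasured level, whereas probe 1 was well above background in Cy3 on 5 of 5 arrays. Both probes had negative differences in either sheep, as did 27.6% of the tested probes, and neither was 2-fold lower in both. The value depended on 1 background setting (normexp models signal and background together): with normexp fitted on all spots, the mean turned to 0.10 and 0.20. In that setting the ratio of probe 1 in CD26- cells was 0.29 in place of 2.18 in sheep 30066 and 0.59 in place of 1.38 in sheep 10081. CD26+ cells of sheep 10081 kept 1.08, as they had to. Their array had 0 spots of high local background to leave out, so its fit was the same in both settings. The other arrays had 3 to 9 such spots. The ratios deposited by the authors, which were made without normexp, gave 2.23 and 1.47 for CD26- and 0.08 and 1.17 for CD26+ cells on the same probe. Leaving out 1 array moved the mean difference between -1.66 and -0.69 on probe 1, and between -1.53 and -0.53 on probe 2. The values nearest to 0, -0.69 and -0.53, were those without the CD26+ array of sheep 30066.

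Against total DC, CD1D stood at 1.70 (SE 0.66) and 1.45 (SE 0.64) in CD26- cells, with an adjusted p of 0.49 and 0.55, and at 0.53 (SE 0.66) and 0.42 (SE 0.64) in CD26+ cells, with 0.83 and 0.867. In CD26- cells probe 1 was higher than total DC by 2.10 in sheep 30066 and by 1.30 in sheep 10081. In CD26+ cells it was higher by 0.04 and 1.01. Probe 2 was not well above background in total DC, so its differences from total DC rest on an unmeasured level. Both CD26- arrays were at least 2-fold above the self-hybridisation on both probes, as on 9.99% of the tested probes. With normexp fitted on all spots CD26- cells stood at 0.42 and 0.30.

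The opposite order of SCD1A25 and CD1D was also compared within each array, where the level of the array cancels. The log2 ratio of SCD1A25 minus that of CD1D, each as the mean of its probes, was 1.40 and 0.96 on the CD26+ arrays of sheep 30066 and 10081, and -2.32 and -1.24 on their CD26- arrays, with -0.40 on the self-hybridisation. Each record had already separated the CD26+ from the CD26- arrays, in opposite directions. The arrays therefore could not overlap in this quantity, which adds no further support. The difference, CD26+ minus CD26-, was 3.72 in sheep 30066 and 2.19 in sheep 10081, and adds up the differences of both records given above. From probe 1 of each record alone it was 3.70 and 2.22. With normexp fitted on all spots it was 1.90 and 1.49, with CD1D itself at 0.10 and 0.20 between the subsets (probe 1 and probe 2). SCD1A25 minus LOC443441 was 2.33 and 2.15 on the CD26+ arrays and 0.47 and -0.21 on the CD26- arrays, with 0.50 on the self-hybridisation. These are differences of ratios and say nothing of which transcript was more abundant. The records were compared with their values known, and no test is given for them.

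**Figure D4:**
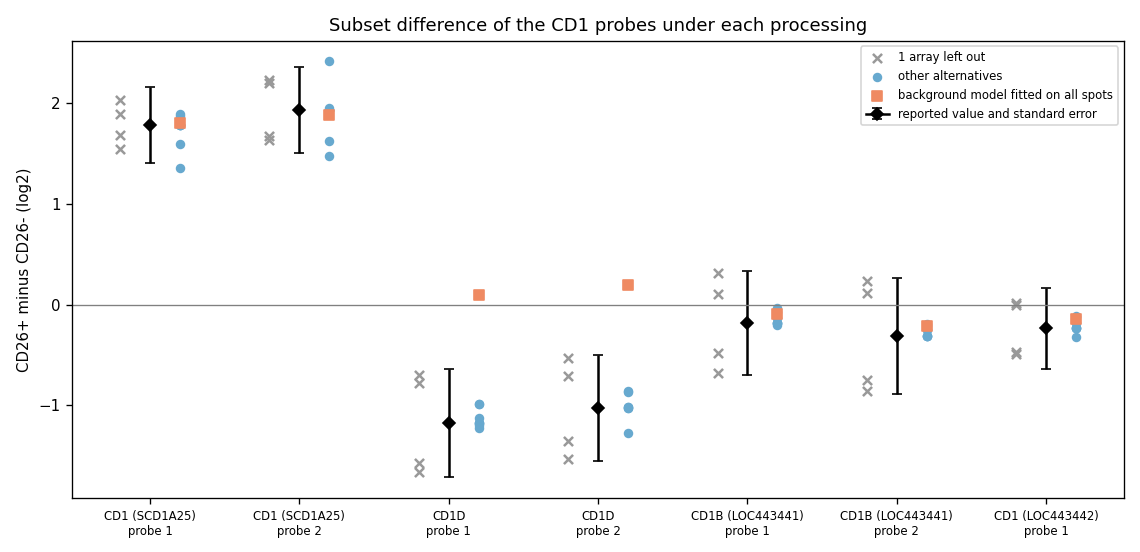
Difference in log2 ratio, CD26+ minus CD26-, of the 7 tested CD1 probes as reported (black, bars are the standard error), with 1 array left out (crosses), with normexp fitted on all spots (squares) and under the other alternatives (circles). Both SCD1A25 probes stay above 1.3 in every setting, while CD1D lies at 0.10 and 0.20 with the model fitted on all spots and below 0 in the others.

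The probe for the record described as a T-cell receptor CD1b alpha chain was well above background in Cy3 on 1 of 5 arrays and was not tested. Its Cy3 signal was 138 units in CD26- cells of sheep 10081 and 49.4 to 67.7 on the other arrays. The log2 ratio was 0.85 on that array, 0.22 in CD26- cells of sheep 30066, and 0.19 and -0.03 in CD26+ cells of sheep 10081 and 30066. No fold between the groups is given for it. It was measured on the array with the highest ratio of CD3D, part of the complex that signals for the T cell receptor. That ratio was 4.11, against 1.41 in CD26- cells of sheep 30066, 3.18 and 0.10 in CD26+ cells, and -0.11 on the self-hybridisation. The other measured T cell markers (CD3E, CD4, CD5, CD28 and CD247) were not highest on that array. CD247 was lowest there, at -2.53. CD3E stood at 1.44 there, against 2.41 in CD26+ cells of sheep 10081. CD5 stood at 0.99, against 2.12 in CD26+ cells of sheep 30066. The part of T cells in the value of the CD1b alpha chain record was not tested. In such bulk samples fewer cells of a type and less RNA per cell cannot be told apart.

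The named genes with ratios most like each CD1 probe over the 5 arrays were found by the root mean square difference among 673 genes. For both CD1D probes they were M6PRBP1, which codes for a coat protein of lipid droplets, at 0.33 and 0.22, TALDO1, an enzyme of the pentose phosphate pathway, at 0.39 and 0.29, and the glucose transporter SLC2A3 at 0.43 and 0.40. The ratio of M6PRBP1 was 1.60 in CD26- and -0.31 in CD26+ cells of sheep 30066, and 1.26 and 1.12 in sheep 10081. Like CD1D, it turned with normexp fitted on all spots, from -1.03 to 0.16 between the subsets. For SCD1A25 the nearest genes were farther away: YBX1, a DNA- and RNA-binding protein, the Notch ligand JAG1 and the adenosine receptor ADORA3 for probe 1 at 0.47 to 0.49, and JAG1, MAPKAP1, a subunit of mTOR complex 2, and ADORA3 for probe 2 at 0.53 to 0.54. The closest gene to both LOC443441 probes and to LOC443442 was CD28, a costimulatory receptor of T cells, at 0.38, 0.45 and 0.23. The ratios of CD28 lay between -0.43 and -0.12 on all arrays, so that this likeness is that of a gene with little change.

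Of 55 listed genes that act around CD1 in lipid antigen presentation (light chain and assembly, lipid loading, sorting, lysosomal enzymes, lipid uptake), 8 could be found by name and tested. 0 of the 8 were called between the subsets, 1 had positive differences in both sheep (as 26.9% of the tested probes) and 3 had negative ones (as 27.6%), with a median difference of -0.16 against -0.005 over all tested probes. Of 6 listed genes of lipid transfer and loading 2 were measured, and 0 were called. NPC2, a lysosomal lipid carrier, had log2 ratios of -3.28 in CD26+ and 0.07 in CD26- cells of sheep 30066 and of -2.15 and 0.13 in sheep 10081, with -0.35 on the self-hybridisation. Its difference was -2.82 (SE 0.51, adjusted p = 0.777 by limma), and the groups did not overlap. It was at least 2-fold lower in CD26+ cells of each sheep, as were 2.9% of the tested probes. PSAP, the precursor of the saposins that load lipids onto CD1, stood at 0.65 and 0.89 in CD26+ and 1.27 and 1.30 in CD26- cells, with -0.05 on the self-hybridisation. Its difference was -0.51 (SE 0.34). The groups did not overlap for PSAP either, and both subsets lay above total DC. Both CD26+ arrays lay below both CD26- arrays on 16.2% of the tested probes. The 4 lysosomal enzymes (CTSB, CTSD, CTSS and LGMN) had a median difference of 0.02, and the chaperone HSPA5 stood at -0.28 (SE 0.71). The spot of CTSS on the CD26- array of sheep 10081 was left out as an outlier, so its value rests on 1 CD26- array. B2M, CD74 and the adaptor complexes that sort CD1 in the cell were not found by name and are not analysed here.

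Few markers of cell types could be named. Of 13 DC markers 3 were measured, the costimulatory molecules CD40, CD80 and CD86, and all 3 were well above background on 5 of 5 arrays. Their differences, CD26+ minus CD26-, were positive in either sheep, as on 26.9% of the tested probes, with means of 0.46 (SE 0.38), 0.54 (SE 0.70) and 1.11 (SE 0.35). For CD80 the mean became -0.16 on leaving out the CD26- array of sheep 30066, and -0.04 on leaving out the CD26+ array of sheep 10081. Against total DC, CD86 was lower in CD26+ (-0.63, SE 0.43) and CD26- cells (-1.74, SE 0.43), while CD40 and CD80 were higher in both. Of 15 markers of T cells and thymocytes, another site of CD1 expression, 6 were measured, with a median difference of 0.22. Their median log2 ratio was -0.15 and -0.04 on the CD26- and CD26+ arrays of sheep 30066, and 0.48 and 0.87 on those of sheep 10081. CD247, which codes for the zeta signalling subunit of the T cell receptor complex, stood at 1.36 (SE 0.55) on its brightest probe. That probe was past 2-fold in each sheep, as were 2.36% of the tested probes, and stood at 0.79 on leaving out the CD26+ array of sheep 30066. The other CD247 probe gave 1.57 in sheep 30066 but 0.83, under 2-fold, in sheep 10081. CD5, also found on B cells, stood at 1.57 (SE 0.53), and at 0.98 on leaving out the CD26- array of sheep 30066. CD3D went the other way at -1.12 (SE 1.43), but stood at 0.26 with normexp fitted on all spots, at 0.42 on leaving out the CD26+ array of sheep 30066 and at 0.23 on leaving out the CD26- array of sheep 10081. The thymocyte genes RAG1, RAG2, DNTT and PTCRA are not analysed here. CLDN1, the single measured Langerhans cell marker, stood at -1.25 (SE 0.35) on its brightest probe. That probe was below -1 in each sheep, as were 2.9% of the tested probes. The other CLDN1 probe gave -0.88 in sheep 30066 and -1.32 in sheep 10081. The only measured B cell marker, CR2, stood at 0.15, well above background on 2 of 5 arrays. The 2 monocyte and macrophage markers had a median of -0.46 but went in opposite directions, CD14 at -1.09 (SE 0.60) and LYZ at 0.17 (SE 0.57). The 4 measured genes of epithelium and stroma had a median of -0.08, and GNLY, the single NK cell marker, had a value for sheep 30066 alone on its brightest probe, at 3.07, while its other probes lay between -0.45 and -0.41 in sheep 10081. The part of these cell types in the CD1 values was not tested.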

How the data were processed

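Total RNA (200 ng) of the sorted cells was amplified and labelled, per the labels, and hybridised to 5 two-colour Agilent arrays of 60-base probes. Linear spot intensity and local background were deposited as written by Feature Extraction (version 9.5.3.1 in the file headers), together with a log10 ratio of Cy5 over Cy3. The deposited value table gives a log2 ratio of Cy3 over Cy5: it equalled that log10 ratio with base and sign changed, to within 0.01 on 100% of spots, with column medians from -0.068 to 0.015. No genome build is given in the sources used here. Signals were background-corrected with normexp (offset 50; its model fitted without spots whose local background was over 5 times the median), normalised by loess within arrays without control spots, and taken as log2 ratios, Cy3 to Cy5 (limma 3.58.1, R 4.3.3). Outlier spots were left out. The test took probes whose Cy3 signal was well above background on 2 or more arrays (13264; 1744 were too dim, among them 1 CD1 probe). None of the 40 CD1 spots was marked as an outlier or as saturated, or had a local background over that limit. The CD1 spots marked as rescaled from a scan at lower gain were kept. The model had 3 group means, fitted with lmFit and eBayes of limma (2 residual and 2.36 prior degrees of freedom), with Benjamini-Hochberg adjustment over all tested probes. The script was tested on simulated data. The labels pair the subsets of each sheep; deviations of its arrays correlated with r = 0.332, and the pairing gives the within-sheep values. Other genes are represented by their brightest probe (names from the files and RefSeq). The number of arrays limits the precision. All 8 CD1 probes are reported; the other named genes are the 3 nearest to each by root mean square difference, and the measured genes of the pathway and marker lists; 1 pathway gene is not reported here. The members, lists and background setting were chosen with earlier results of these data known. Arrays had 80.8% to 89.2% of probes well above background, and the Cy5 signals of each correlated with those of the self-hybridisation with r of at least 0.988. Alternatives covered background model, dye normalisation, scaling, dim probes, pairing, the control array and leaving out 1 array.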

Additional observations from a re-analysis of the deposited data

How the results depend on the processing

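Between the subsets, limma called 0 probes in every setting, the sheep as a replicate block included (smallest adjusted p = 0.577, 1126 probes at an unadjusted p under 0.05). The block changed no call of a CD1 probe. limma also called 0 probes against total DC in all settings but one. Taking ratios against 0, without the self-hybridisation, called 1166 probes for CD26+, 1066 for CD26- and 3665 for the mean of the subsets. That test leaves out the spread of the control and also does not subtract its value, so the dye effect of each probe stays in. It called SCD1A25 in CD26+ cells (1.71 and 1.78, probes 1 and 2), SCD1A25 probe 1 (0.82) and CD1D probe 1 (1.19) for the mean. It turned LOC443442 to -0.41 in CD26+, -0.18 in CD26- cells and -0.30 for the mean, LOC443441 to -0.42 and -0.58, -0.23 and -0.26, and -0.32 and -0.42, and SCD1A25 in CD26- cells to -0.076 and -0.16.

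With normexp fitted on all spots, the subset difference turned for CD1D (0.10 and 0.20), M6PRBP1 (0.16), CD3D (0.26) and CD28 (-0.15). Median centring turned the following against total DC: in CD26+ cells LOC443442 (-0.13), LOC443441 probe 2 (-0.19) and CD1D probe 2 (-0.038); in CD26- cells LOC443442 (-0.016), SCD1A25 probe 1 (-0.035) and LOC443441 probe 2 (-0.003); for the mean LOC443442 (-0.072) and LOC443441 probe 2 (-0.10). Scaling between arrays raised, against total DC, LOC443441 to 2.18 and 1.67 and LOC443442 to 1.47 in CD26+ cells, and in CD26- cells LOC443441 to 2.32 and 1.92, LOC443442 to 1.65 and SCD1A25 to 0.56 and 1.02. In CD26- cells SCD1A25 probe 1 also turned with the scanner's processed signals (-0.092) and probe 2 with Cy3 alone (-0.35), an alternative added after the data had been seen. The causes were not tested.

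Leaving out 1 array gave, between the subsets, -0.49 to 0.013 for LOC443442, -0.68 to 0.31 and -0.86 to 0.23 for LOC443441, -2.66 to 0.42 for CD3D, -0.16 to 1.23 for CD80, -0.90 to 0.29 for SLC2A3 and -0.04 to 0.22 for CD28. Against total DC it gave -0.024 to 0.44 for LOC443442, -0.26 to 0.60 for LOC443441 probe 2 and -0.081 to 0.92 for CD1D probe 2 in CD26+ cells, and -0.019 to 0.51 for SCD1A25 probe 2 and -0.065 to 1.03 for LOC443441 probe 2 in CD26- cells. A lone array of a group was then assumed to vary like the others. The sheep as a random block could not be fitted to 5 arrays; a block coded 0 for the self-hybridisation, added later, called 0 probes. CD1D probe 2 has no value where all 5 arrays had to be above background.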
